A study of Homo sapiens with 8 samples.

Results

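The regions described here are intervals of H3K9me3 called in drug-tolerant persister cells but not in the parental cells, and called again after persisters received a histone deacetylase inhibitor. They were chosen from the deposited interval lists by overlap. A member is an autosomal interval of the persister (DTP) list that shares no base with any interval of the parental list and at least 1 bp with an interval of the DTP + TSA list. There were 19060 of them among 45381 autosomal DTP intervals, and 47866 DTP intervals and 124708 intervals of the 3 lists in all. They covered 59.5 Mb, or 2.07% of the autosomes.

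All 3 states were PC9 cells, an established line of EGFR-mutant human lung adenocarcinoma. Parental cells were untreated. DTP cells were those alive after 8 days in 1 uM erlotinib, an inhibitor of the EGFR kinase, and DTP + TSA cells had the same course of erlotinib plus 5 hours of 50 nM trichostatin A (TSA). Each state is represented by 1 H3K9me3 ChIP-seq library, so no difference has a replicate check. Read numbers are not part of the lists, and depth is therefore unknown. Only PC9, and no second line, was profiled. Since the overlaps that define the members come from the same lists as every value below, these values are given as descriptions, without p-values. Shares carry exact (Clopper-Pearson) 95% intervals, which cover counting error only.

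H3K9me3 is the trimethyl mark of histone H3 lysine 9 that HP1 proteins bind, and it marks constitutive heterochromatin: satellites near centromeres, clusters of zinc finger genes, and transposable elements such as LINE-1. SETDB1, recruited by KRAB zinc finger proteins through TRIM28, writes it at transposable elements, and SUV39H enzymes write it at satellites. Histone deacetylation helps to keep such chromatin compact, and trichostatin A blocks the zinc-dependent deacetylases. The study's title names silencing of transposable elements as a means by which persisters survive.

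The 2 conditions of the rule differed in how closely they bounded the members. Of the 45381 autosomal DTP intervals 65.1% were absent from the parental list, and 72.1% overlapped the DTP + TSA list. Of the 29552 intervals gained over the parental list, 64.5% (63.9 to 65.0) overlapped DTP + TSA and are the members; the other 10492 did not. Although 1 bp was enough, 92.2% (91.8 to 92.6) of the members were covered over at least 50% of their length after TSA, and 37.2% (36.5 to 37.9) lay wholly inside DTP + TSA intervals. Only 51 members, with a median length of 400 bp, overlapped by a single 200-bp step of the grid on which the intervals are drawn. Just outside the rule, 26 gained intervals with a median length of 2400 bp lay at most 1 step from a DTP + TSA interval without touching it. On the parental side, 52 members lay at most 1 step from a parental interval, and 25 intervals that overlapped DTP + TSA were left out for a single step shared with a parental one. Absence from the parental list means that no interval was called there, not that the mark was absent. The parental list is also the shortest, with 23842 intervals against 47866 in DTP and 53000 in DTP + TSA, and the part of this in the number of gained intervals was not tested.

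The rule excludes overlap with parental intervals, and the distance beyond that varied widely. The median distance to the nearest parental interval was 40.8 kb, with quartiles at 14.4 and 100 kb. A parental interval lay within 5 kb of 10.6% (10.1 to 11.03) of the members, while 24.98% (24.4 to 25.6) were more than 100 kb from any. For gained intervals that TSA-treated cells lacked, the median was 47.7 kb, and 9.35% (8.80 to 9.92) lay within 5 kb. Most members thus lay more than 5 kb from any parental interval, as did most gained intervals not found after TSA. How far random positions lie from parental intervals was not examined.

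Members were short, but longer than the gained intervals not found after TSA. Their median length was 2400 bp, with quartiles at 1800 and 4000 bp and a range of 200 bp to 31.8 kb. The gained intervals not found after TSA had a median of 1800 bp, and the DTP intervals shared with parental cells 3400 bp. Intervals of at most 2 kb made up 38.1% (37.4 to 38.8) of the members and 64.4% (63.5 to 65.3) of those not found. Lengths over 8 kb occurred in 436 members, 13 intervals not found and 1759 shared ones. All 20 gained intervals over 16 kb were members, against 367 of that length shared with parental cells.

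The authors' mean signal within an interval followed the same order. Its median was 10.8 in the members, 8.17 in the gained intervals not found after TSA and 12.3 in the shared ones. In the whole DTP list the members' median stood at percentile 54.4. Of the members 7.29% (6.93 to 7.67) were in the upper 10% of the DTP list by mean signal, against 0.59% (0.45 to 0.76) of the intervals not found and 20.01% (19.4 to 20.6) of the shared ones. The summit value had medians of 23, 15 and 29 in the same order.

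**Figure D1:**
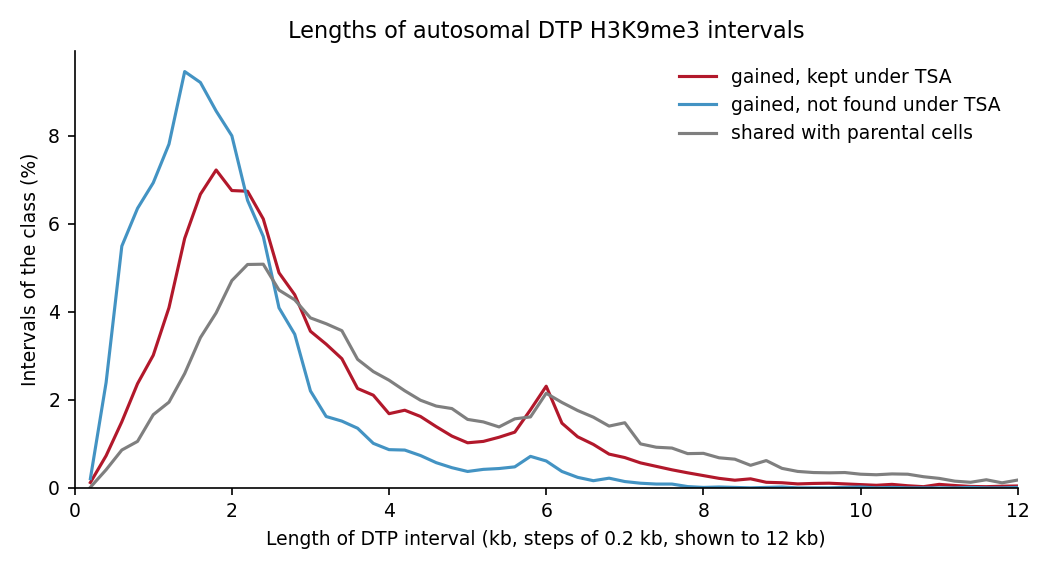
Lengths of autosomal DTP intervals in steps of 0.2 kb (x axis, kb) as a percentage of each class (y axis), for the 19060 members (red), the 10492 gained intervals not found after TSA (blue) and the 15829 shared with parental cells (grey). The members peak at 1.8 kb (1376 intervals) and again at 6 kb (440).

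A second peak of lengths stood at 6 kb, close to the length of a full LINE-1 element, the only autonomous transposable element still active in the human genome. At 6000 bp exactly there were 440 members, against 195 at 5000 bp and 131 at 7000 bp. Lengths of 5.8 to 6.2 kb were found in 1058 members, or 5.55% (5.23 to 5.89), in 1.70% (1.46 to 1.96) of the gained intervals not found after TSA and in 5.70% (5.34 to 6.07) of the shared ones. Relative to the class of 4.8 to 5.2 kb the numbers were 1.71 times as high in the members and 1.17 times in the shared intervals. In the gained intervals not found after TSA they were 1.36 times as high. Whether these intervals lie on LINE-1 elements was not examined, since no hg19 sequence or repeat annotation was used.

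Gained intervals of 6 kb were found again about as often as those of neighbouring lengths. Of the gained intervals of 5.8 to 6.2 kb, 85.6% (83.5 to 87.5) were found again, and of those of 4.8 to 5.2 or 6.8 to 7.2 kb 84.8% (82.6 to 86.8). In 10 equal classes of mean signal, made over all autosomal DTP intervals, the 6 kb share was above that of the neighbouring lengths in 3. The 6 kb members differed in where they lay: 34.8% (31.9 to 37.7) were in the darkest Giemsa classes (gpos75 or gpos100), which are AT-rich and poor in genes, against 25.4% (22.7 to 28.2) of members of the neighbouring lengths. A smaller share of them paired one-to-one, 824 of 1058 against 859 of 1005 of the neighbouring lengths. Among these pairs the 6 kb members kept their length more often: 43.3% changed by at most 400 bp, against 27.7% for the neighbouring lengths. Of the 824 that paired with a single DTP + TSA interval, 31.7% (28.5 to 35.0) were again 5.8 to 6.2 kb long. Return to the own class of length was seen in 19.4% (16.2 to 22.9) of 552 pairs of 4.8 to 5.2 kb and in 19.2% (15.0 to 24.1) of 307 pairs of 6.8 to 7.2 kb. The median change was -200 bp for the 6 kb members and -600 bp for each neighbouring class.

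The stronger and longer a gained interval was in DTP, the more often it was found again under TSA. In the lowest of the 10 classes of mean signal 33.3% (31.7 to 34.9) were found, in the fifth 66.4% (64.7 to 68.0) and in the highest 95.9% (94.7 to 96.9). By length, the share went from 39.7% (38.1 to 41.2) at up to 1 kb to 67.9% (66.8 to 69.0) over 2 to 3 kb and 97.0% (94.9 to 98.4) over 8 to 16 kb. By mean signal, DTP intervals shared with parental cells had the same order at a higher level. Of these 52.2% (49.1 to 55.2) were found again in the lowest class and 99.7% (99.4 to 99.8) in the highest. They were also longer, with a median of 3000 bp against 2400 bp in the lowest class and 3400 bp against 2200 bp in the highest. Shared and gained intervals were not compared at matched length. Short gained intervals were not the weak ones: the median of mean signal was 11.5 at up to 1 kb and 9.11 over 3 to 4 kb. A longer interval also has more bases with which to meet the 1 bp rule. The calling threshold is not given, and neither its part nor that of length in this order was tested.

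**Figure D2:**
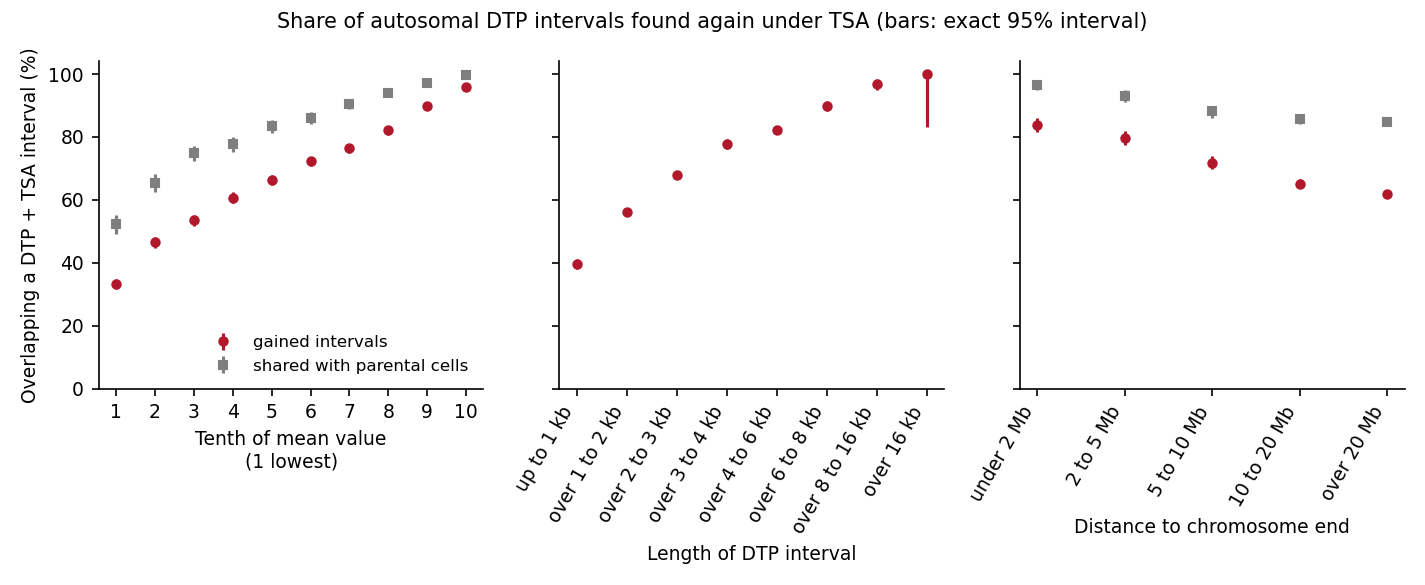
Percentage of autosomal DTP intervals that overlap a DTP + TSA interval (y axis) by class of mean signal, by length and by distance to the nearer chromosome end (x axes), for gained intervals (red circles) and those shared with parental cells (grey squares, not drawn for length). Bars are exact 95% intervals; the share climbs with signal and length and is highest within 2 Mb of an end, at 83.8% of the gained intervals.

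The share also differed by place. Within 2 Mb of a chromosome end 83.8% (81.6 to 85.9) of the gained intervals were found again, from 2 to 5 Mb 79.7% (77.5 to 81.9) and beyond 20 Mb 61.8% (61.1 to 62.4). At matched mean signal the share within 5 Mb of an end was above that beyond 20 Mb in 9 of 10 classes. The exception was the class of highest signal, at 93.7% and 96.0%. At matched length it was above in 7 of 8 classes and equal, at 100%, over 16 kb. The DTP + TSA list itself covered 22.2% of the sequence within 2 Mb of an end and 4.93% of that beyond 20 Mb, against 12.6% and 5.39% for DTP, so a gained interval near an end also had more DTP + TSA sequence to meet. The part of this in the higher share was not tested.

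Light bands kept more of their gained intervals than dark ones. Of those in gneg bands, the gene-rich light bands, 68.7% (67.9 to 69.5) were members, and in gpos100, the darkest, 54.9% (53.5 to 56.3). Light bands were above dark ones in all 10 classes of mean signal. Gained intervals as a whole were about as dense in gneg as in gpos100, at 11.1 and 10.9 per Mb, whereas members stood at 7.60 and 5.96 per Mb. Of all members 27.3% (26.7 to 28.0) lay in dark bands and 37.5% (36.5 to 38.4) of the intervals not found. The DTP + TSA list covered 7.99% of gneg and 3.32% of gpos100, and its part in this difference was not tested either. Centromeric bands, whose length includes unresolved sequence in hg19, held 283 members at 2.88 per Mb, and the stalk bands of the acrocentric short arms held none.

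Members were found on every autosome, and density and the share kept did not follow one order. Chromosomes 6, 5 and 19 had the most members per Mb, at 8.21, 7.98 and 7.78, and chromosomes 16, 22 and 21 the fewest, at 4.96, 4.66 and 3.59. The autosomes as a whole had 6.62 per Mb. The share of gained intervals that were members was highest on chromosome 19 at 80.1% (76.6 to 83.3) and chromosome 22 at 76.8% (71.8 to 81.4), and lowest on chromosome 4 at 58.9% (56.8 to 60.9). Chromosome 22 thus had few gained intervals, 311, and kept a large share of them. Chromosome 19 held 460 members that made up only 27.9% of its DTP intervals, the lowest such share of any autosome. On chromosome 15 members made up 49.5% (46.5 to 52.5) of the DTP intervals, the highest.

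**Figure D3:**
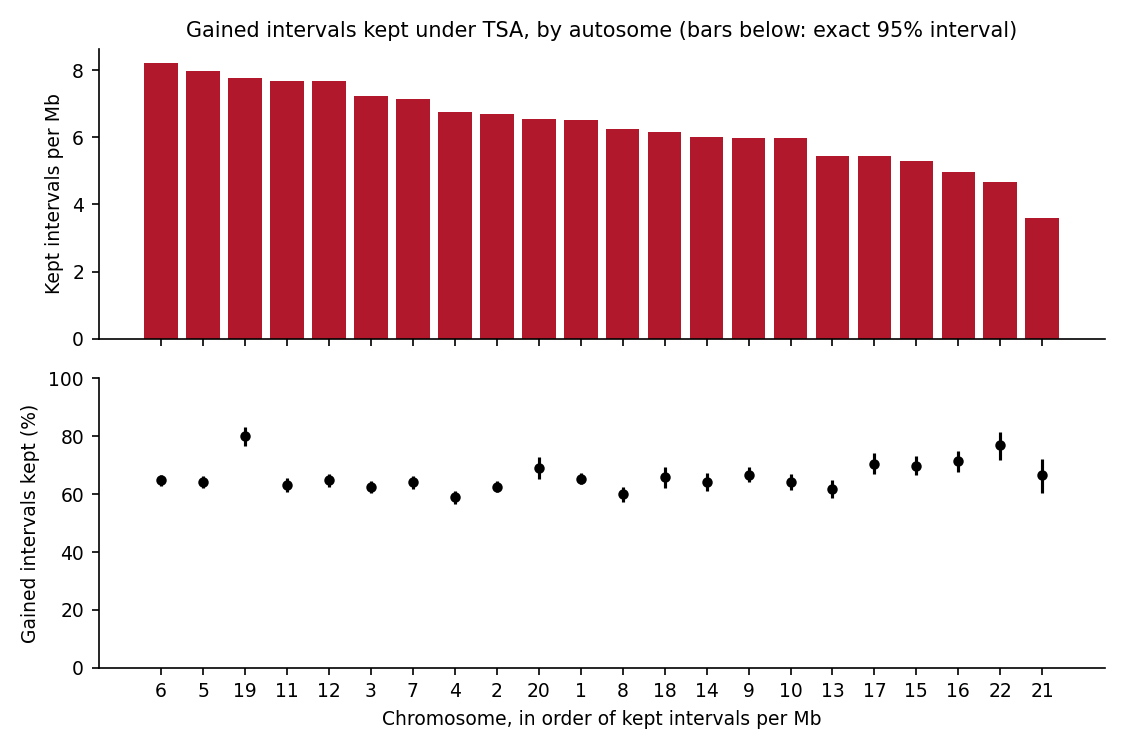
Members per Mb (upper panel) and the percentage of gained intervals that were members with exact 95% intervals (lower panel) for the 22 autosomes, ordered by members per Mb (x axis). Density runs from 8.21 per Mb on chromosome 6 to 3.59 on chromosome 21, while the share is highest on chromosome 19 at 80.1%.

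By band, members were most concentrated near chromosome ends. Of 774 autosomal bands of at least 1 Mb, 740 held a member, and the median band had 1.96% of its length covered by members, with quartiles at 1.28% and 2.78%. The highest coverage was in 22q13.33 (9.92%, 33 members of 34 gained intervals), 7p22.3 (9.86%, 54 of 56), 5p15.33 (9.21%, 56 of 63), 11q12.3 (7.60%, 26 of 33) and 7q36.3 (7.05%, 54 of 67). All but 11q12.3 are the last band of their arm. 5p15.33 is the band of TERT, the catalytic subunit of telomerase, and 7q36.3 that of SHH, a developmental signalling protein. The 4 terminal bands were covered to between 37.1% and 48.6% after TSA, against 16.8% to 24.2% in DTP, and 11q12.3 to 12.8% against 13.4%. Parental intervals already covered between 9.16% and 18.4% of the 4 terminal bands and 6.39% of 11q12.3, against 4.25% of all autosomal bands. At the other extreme, among the 737 bands with at least 5 DTP intervals, 5p11 and 19p11 had no member. Neither had a gained interval, so the parental condition of the rule alone left them empty. 19p12, a zinc finger cluster, had 3 members of only 6 gained intervals, among 344 DTP intervals. It was covered to 90.2% in parental cells and 55.6% in DTP.

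Genes could be placed only by band, so the following values describe the surroundings of gene families and not the genes. Bands with HOX genes, which set position along the body axis and are silenced by Polycomb where unused, had 150 members at 8.98 per Mb, and 76.5% (70.0 to 82.3) of their 196 gained intervals were members. Among the 4 HOX bands, 7p15.2 with the HOXA cluster had 15.2 members per Mb and 38 of 43 gained intervals kept. 2q31.1 with HOXD had 9.76 per Mb, 12q13.13 with HOXC 6.18, and 17q21.32 with HOXB 4, below the autosomes as a whole. Bands with C2H2 zinc finger genes, many of which encode the KRAB repressors of transposable elements, stood at 7.42 members per Mb and 70.3% (69.2 to 71.4) kept. In the 14 bands with at least 10 such genes 77.2% (73.7 to 80.4) were kept.

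The other families lay on both sides of the 64.5% kept over all autosomes. Bands with olfactory receptor genes, odorant receptors that lie in tandem arrays, had 8.23 members per Mb and 69.0% (66.9 to 71.0) kept. Bands with keratin-associated genes, which encode hair proteins, had 8.28 per Mb and 77.1% (70.9 to 82.6), those with defensins, antimicrobial peptides, 7.03 and 72.3% (66.7 to 77.3), and those with replication histones 8.05 and 68.6% (61.8 to 74.9). The band of the clustered protocadherins, adhesion proteins of neurons, was low at 4.60 per Mb, with 54.8% (38.7 to 70.2) of 42 kept. Whether any family differs from other bands of its kind was not tested.

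Most members met a single DTP + TSA interval that met no other DTP interval, the overlap itself being required by the rule. Of the 19060 members 17512, or 91.9% (91.5 to 92.3), paired one-to-one, meaning that member and DTP + TSA interval overlapped nothing else of the other list. A further 697 were met by at least 2 DTP + TSA intervals. The remaining 851 lay in 537 DTP + TSA intervals that also took in other DTP intervals, up to 7 in one, with a median length of 6600 bp. The DTP + TSA interval of 279 members, or 1.46% (1.30 to 1.64), reached a parental interval as well. Over all members 80.5% of the length was covered again, 47.9 of 59.5 Mb.

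Summits lay within 200 bp of each other in most pairs, but not in most pairs of longer members. In the one-to-one pairs the summits of the 2 lists were a median of 128 bp apart, less than 1 step of the grid, and 61.1% (60.4 to 61.9) were within 200 bp. The DTP summit lay inside the DTP + TSA interval in 97.9% of the pairs, all of which overlap by the rule. For pairs of intervals shared with parental cells the median was also 128 bp and the share within 200 bp 61.2% (60.3 to 62.1). Summits were farther apart in longer members: 71.9% (70.9 to 73.0) were within 200 bp in members of up to 2 kb, 59.8% (58.6 to 60.9) over 2 to 4 kb and 43.5% (41.9 to 45.1) over 4 kb. Members of 5.8 to 6.2 kb, at 37.5% (34.2 to 40.9), lay between those of 4.8 to 5.2 kb, at 48.9% (44.7 to 53.2), and those of 6.8 to 7.2 kb, at 35.5% (30.2 to 41.1). Over the 17512 sites the rank correlation between the lists was 0.64 for mean signal and 0.69 for length, as a description of sites that share a cell line and a genome position; in the 11563 pairs shared with parental cells these were 0.78 and 0.79.

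In most pairs the width changed by little. The median one-to-one pair did not change in length, with quartiles of -600 and 400 bp. Longer by at least 1 step were 6575 pairs, or 37.5% (36.8 to 38.3), against 38.2% of all autosomal one-to-one pairs, and shorter 8475, or 48.4% (47.7 to 49.1), against 48.4%. Equal length was seen in 14.1%. At least 1.5 times longer were 13.0% (12.5 to 13.5), against 11.7% of all pairs, and at least 1.5 times shorter 18.0% (17.5 to 18.6), against 16.1%. All pairs include the members. In the 11563 pairs shared with parental cells, whose median DTP length was 3600 bp against 2400 bp in the members, 39.3% (38.4 to 40.2) were longer and 48.5% (47.6 to 49.4) shorter. Changes of 1.5 times were less frequent there, at 9.81% (9.27 to 10.4) longer and 13.1% (12.5 to 13.8) shorter. The summed length of the pairs was 52.1 Mb in DTP and 51.4 Mb in DTP + TSA.

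Short members were more often longer after TSA, and long members shorter. Of those up to 1 kb in DTP 59.6% (57.0 to 62.2) were longer, and of those over 6 to 8 kb 25.8% (23.2 to 28.5). Sorted by the DTP + TSA length instead, the order turned around: 13.4% (11.8 to 15.2) of pairs with up to 1 kb after TSA had been shorter in DTP, and 60.7% (57.4 to 63.9) of those over 6 to 8 kb. The direction by length therefore depends on which list sorts the pairs.

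The change of width differed by place. Within 2 Mb of a chromosome end 63.2% (59.8 to 66.6) of the member pairs were longer after TSA, with a median change of 400 bp, and beyond 20 Mb 33.1% (32.2 to 33.9), with a median of -200 bp. The upper 5% of changes began at 8400 bp near the ends and at 1400 bp in the interior. The order was the same in all 8 length classes, although that over 16 kb held only 3 and 4 pairs. Examples are 63.7% longer pairs within 5 Mb of an end against 42.4% beyond 20 Mb for members over 1 to 2 kb, and 60.8% against 20.9% for those over 6 to 8 kb. Pairs shared with parental cells had the same order, with 61.5% (57.6 to 65.3) longer within 2 Mb and 35.2% (34.2 to 36.3) beyond 20 Mb, so it was not confined to the members. By chromosome, longer pairs outnumbered shorter ones on chromosomes 16, 17, 19, 20, 21 and 22. Chromosomes 22, 19 and 16 led with 59.7%, 58.9% and 52.8% longer, and chromosome 3 was lowest with 31.2%.

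**Figure D4:**
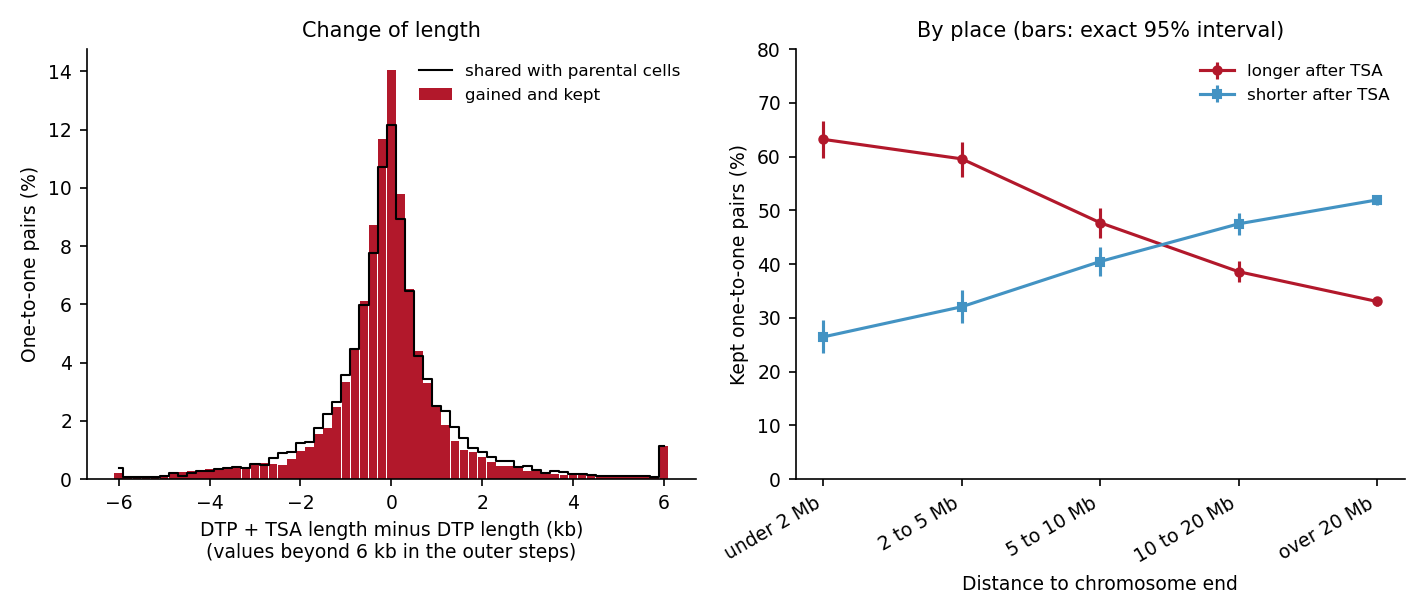
Left, DTP + TSA length minus DTP length in kb (x axis, steps of 0.2 kb) as a percentage of one-to-one pairs, for 17512 members (red bars) and 11563 intervals shared with parental cells (black line). Right, percentage of member pairs longer (red) or shorter (blue) after TSA by distance to a chromosome end, with exact 95% intervals; 63.2% are longer within 2 Mb and 33.1% beyond 20 Mb.

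Of the 5 longest members 4 lay within 1.36 Mb of a chromosome end and met longer DTP + TSA intervals. The longest, chr16:1089201-1121000 on hg19 in 16p13.3 (31.8 kb), had a mean signal of 13.6 in DTP and lay inside a DTP + TSA interval of 54.8 kb, 2.8 kb from the nearest parental interval. The member chr5:473601-505200 in 5p15.33 (31.6 kb) was 41.0 kb long after TSA, with a parental interval no nearer than 126.8 kb. In 8q24.3, chr8:144990601-145013600 (23 kb) lay in an interval of 46.6 kb. In 20q13.33, chr20:61972801-61995600 (22.8 kb) was met by 2 intervals of 93.4 kb together. The exception was chr11:50655001-50680200 in 11p11.12 beside the centromere of chromosome 11, whose 25.2 kb were met by 3 intervals of 18.6 kb together, with 73.8% of the member covered.

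The largest changes in one-to-one pairs followed the same division. A member of 11.8 kb at chr2:241716601-241728400 in 2q37.3 lay in a DTP + TSA interval of 62.8 kb, the largest gain at 51.0 kb. A member of only 1.0 kb at chr20:61702001-61703000 in 20q13.33 lay in one of 34.8 kb, and 1 of 5.6 kb at chr22:49014801-49020400 in 22q13.32 in one of 38.2 kb. All 3 are within 2.29 Mb of a chromosome end. The largest losses were in a centromeric band and in 11p11.12, near the centromere of chromosome 11: 14.4 kb at chr12:38026601-38041000 in 12q11 became 3.2 kb, 13.0 kb at chr11:48819401-48832400 in 11p11.12 became 3.0 kb, and 18.4 kb at chr11:50681001-50699400 in 11p11.12 became 9.6 kb.

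The strongest members were short and barely moved. The highest mean signal in DTP, 1807, was at chr2:92311401-92313400 in the centromeric band 2p11.1, a 2.0 kb interval with identical borders after TSA and a parental interval 1.4 kb away. The next was 946 at chr11:51590001-51594000 in 11p11.12, 4.0 kb long in both lists and 1.6 kb from a parental interval. The other 3, with 844, 482 and 389, lay at chr10:135490601-135491200 in 10q26.3, chr9:72651601-72654400 in 9q21.12 and chr9:44992801-44993400 in 9p11.2. Those in 10q26.3 and 9p11.2 were 0.6 kb long with the same borders in both lists, and the one in 9q21.12 went from 2.8 to 2.2 kb. Each was above percentile 99.9 of mean signal in its own list, both in DTP and after TSA. The 95th percentile of the members was 22.3, far below these values. The input libraries were not analysed, so whether input signal is also high at these places was not tested.

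A small part of the members formed larger new domains. Other DTP intervals did not enter the chains, and how often they chain in the same way was not compared. The median gap between neighbouring members was 75.5 kb, and 12.5% of 19038 gaps were at most 10 kb. When members were chained across gaps of up to 10 kb, 14709, or 77.2% of all, stayed single, 1666 chains were pairs, and 304 domains held at least 3. These domains took in 1019 members, or 5.35%, with a median span of 20 kb and a longest span of 106.2 kb. In 288 of the 304 no parental interval lay inside, and parental intervals covered 0.73% of their summed span of 6.70 Mb. DTP covered 56.6% of it and DTP + TSA 54.4%: 128 domains were covered more after TSA, 161 less and 15 equally. Domains lay within 5 Mb of a chromosome end in 20.7% of cases, against 10.6% of members. The band 5q35.3 held 8 of them and 10q26.3 held 6.

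The domain with the most members, chr12:38079401-38174800 in the centromeric band 12q11, had 10 members among 14 DTP intervals, and its 95.4 kb were covered to 80.7% in DTP and 53.5% after TSA. At chr16:1162001-1268200 in 16p13.3, 1.22 Mb from the end of the chromosome, 9 members covered 83.0 kb of 106.2 kb. There the 9 DTP intervals were met by 5 DTP + TSA intervals, the longest of 46.6 kb, and coverage went from 78.2% to 95.5%. The other 2 domains of the leading 5 outside 7p15.2 were chr3:90444601-90499200 in the centromeric band 3p11.1, with 8 members and 87.9% covered in DTP against 63.7% after TSA, and chr9:69948401-69993400 in 9q21.11, with 7 members and 52.4% against 27.6%. None of these had a parental interval inside, but parental intervals lay close by. The nearest was 3 kb away in 12q11, 3.2 kb in 9q21.11, 7.2 kb in 3p11.1 and 15.6 kb in 16p13.3. All but the last are below the 10 kb across which members were chained. The 2 domains in centromeric bands and that in 9q21.11 were thus thinner after TSA, and the one near a chromosome end was fuller.

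**Figure D5:**
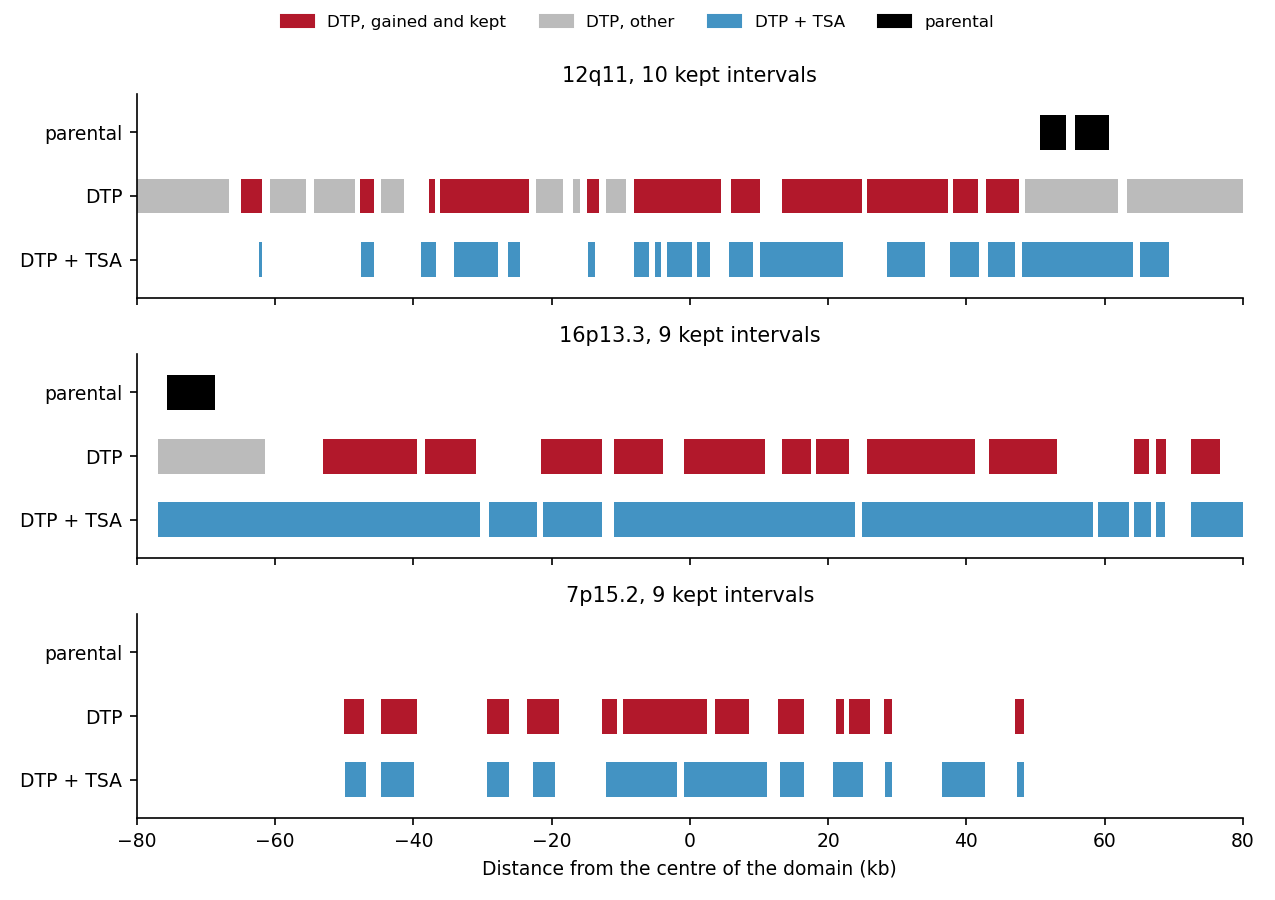
Intervals of the 3 lists around 3 of the new domains, drawn to scale by distance from the centre of each domain (x axis, kb), with members in red, other DTP intervals in grey, DTP + TSA intervals in blue and parental intervals in black. Intervals that reach past 80 kb are cut off at the frame. Only intervals close to each domain are drawn, so blank flanks do not show absence. Coverage was lower after TSA in the 12q11 domain, at 53.5% against 80.7% in DTP. It was higher in 16p13.3, at 95.5% against 78.2%, and little changed in 7p15.2, at 63.8% against 61.8%. The parental interval nearest to the 7p15.2 domain, 35.4 kb away, is not drawn.

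The domain in 7p15.2, the band of the HOXA cluster, lay 27.2 Mb from the nearer chromosome end and outside the centromeric bands. At chr7:27161401-27220000 it held 9 members over 58.6 kb, the nearest parental interval was 35.4 kb away, and no other DTP interval lay inside. From lower to higher coordinate the members were 3.2, 4.6, 2.2, 12.2, 4.8, 3.8, 1.2, 3.0 and 1.2 kb long. Their mean signal in DTP was lowest in the 4.8 kb member, at 11.1, and highest in the first of 1.2 kb, at 34.8, against a median of 10.8 over all members. After TSA the place held 7 intervals of 3.2, 3.2, 10.2, 12, 3.4, 4.4 and 1.0 kb, and coverage was 63.8% against 61.8% in DTP. The 1-Mb window chr7:27000001-28000000 around it held 25 members, where the mean window held 6.58. The band held 3 domains in all. That at chr7:27126601-27151200 had 4 members, lay 0.6 kb from a parental interval and was covered to 64.2% in DTP and 51.2% after TSA. That at chr7:27237801-27253600 had 3 members, with 20.3% covered in DTP and 26.6% after TSA. No hg19 gene annotation was used, so which HOXA genes the intervals cover was not examined.

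Of the 21 domains with at least 5 members, 10 were covered more after TSA and 11 less. A further 3 of them are named for genes of their bands, chosen after their values were seen, and all 3 are among the 10. One lay at chr11:31817801-31849400 in 11p13, the band of PAX6, a regulator of eye development, with 56.3% covered in DTP and 72.8% after TSA, and with the nearest parental interval 140.6 kb away. The other two were in bands with imprinted gene clusters: chr20:57385201-57431400 in 20q13.32, the band of GNAS, at 47.6% and 55.4%, and chr11:2590201-2628600 in 11p15.5, the band of KCNQ1, at 53.6% and 71.4%. Each of the 3 had 5 members and no parental interval inside. Where genes lie within these intervals was not examined.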

How the data were processed

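H3K9me3 ChIP-seq was analysed in 3 libraries, 1 per state; 2 H3K4me3 and 3 input libraries were not analysed here. The deposited lists give position, summit and the authors' signal at the summit and averaged over each interval, per the file headers. BWA, SICER, hg19 and dm3 are named without roles or versions in the submitters' processing notes. Threshold, input and scaling: not given in the sources used here, so signal was used only within a list. Members and gene lists were chosen with earlier results of these data known. Regions named are the longest, strongest and most changed members, the domains with most members, and the extreme bands and chromosomes. Coordinates are 1-based on hg19. Bands came from circlize 0.4.16 under R 4.3.3, assigned by midpoint. Distances to ends include the short arms of acrocentric chromosomes. Genes were matched to hg19 bands by band name from RefSeq's GRCh38 table (56756 of 56756 autosomal genes). No interval sequence was used. Other steps used matplotlib 3.10.9, scipy 1.17.1, pandas 2.3.3 and numpy 2.4.6 under Python 3.11.15. Interval arithmetic was tested on simulated data. Alternatives changed the overlap, the distance to parental intervals, joining, the strength of intervals, bands, chromosomes, pairing and the joining distance of domains.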

Additional observations from a re-analysis of the deposited data

How the results depend on the processing

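Of 59 values under 10 alternatives, 31 stayed within the interval of the reported value or, for counts, within 1.5 times of it. Removing centromeric, variable and stalk bands or adding chromosomes X and Y moved none of the 8 results beyond that. With 23842 of the strongest intervals from each list the members numbered 6882, or 53.3% of the gained intervals, with a median length of 2200 bp, 3.39% of 5.8 to 6.2 kb, 24.9% in dark bands, 11.8% within 5 Mb of an end, 39.2% longer after TSA and 37 domains. Intervals at or above the median mean signal of each list gave 8955 members, or 57.0%, with 4.68% at 6 kb, 25.7% in dark bands, 38.6% longer and 64 domains. Both settings leave fewer intervals. Joining intervals within 5 kb gave 65.8% kept, a median of 2800 bp, 7.19% at 6 kb, 28.4% in dark bands, 9.44% near ends, 39.1% longer and 56 domains. Requiring 50% coverage gave 59.5% kept, 4.76% at 6 kb and 40.7% longer. Leaving out members within 5 kb of parental intervals gave 9.98% near ends. All members against summed DTP + TSA length gave 39.5% longer. Domains numbered 124 when chained across 5 kb and 685 across 20 kb. No paired analysis was possible because each state has 1 library.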

Other observations

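The members were unevenly spread along the chromosomes. Over 2897 autosomal windows of 1 Mb, 2693 held a member, the median was 6, and 19 windows held at least 20. The variance of members per window was 2.78 times the mean. The fullest were chr5:180000001-181000000 with 26 members, chr1:1000001-2000000 and the 7p15.2 window with 25 each, and chr12:38000001-39000000 and chr5:49000001-50000000 with 24 each. Of the 100 longest members 45 lay within 5 Mb of a chromosome end and 16 in centromeric, variable or stalk bands. Of the 100 members with the highest mean signal 18 and 12 did so, and of all members 10.6% and 1.83%. The 100 strongest had a median length of 1700 bp and the 100 longest one of 13.6 kb.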
